A study of Saccharomyces cerevisiae with 27 samples.

Results

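The repeated genes beside the ribosomal DNA of budding yeast were taken as all probe sets annotated to ASP3-1, YLR154C-H, YLR156W, YLR157W-E or YLR162W, which gave 6 probe sets of 5 genes among 5684 probe sets of 5434 named genes. The genes were chosen by their expression differences between these groups, with the results of every comparison below known, so these values describe the genes and are not tests of them. The arrays held RNA from haploid cells of W303 origin. The mutant scc2-4 gave 7 arrays with and 7 without a DNA double-strand break, and wild type gave 6 with and 7 without it, each spread over experiments 1 and 2. Per the labels all groups grew in medium with raffinose, were held in G2/M, were warmed, then received galactose and were collected later. The scc2-4 allele makes Scc2, the subunit of the cohesin loader, fail at the raised temperature. Galactose makes the cells produce the HO endonuclease, which cuts where a strain carries its recognition site. Since galactose is given for all groups, a response to the break and another difference between the strains with and without it cannot be told apart. The labels place the break on chromosome VI in one field and on chr.iv in another.

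The ribosomal DNA of yeast is a long array of repeated units on chromosome XII, each with the genes of the large ribosomal RNA precursor and of the 5S ribosomal RNA. The array is kept stable by silencing through Sir2 and by cohesin, which holds sister chromatids together. Fob1 is the fork barrier protein of the array. Beside it lies a shorter stretch in which ASP3, the gene of the cell-wall asparaginase that lets cells use external asparagine as a nitrogen source, recurs together with small open reading frames and extra 5S genes.

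The gene table of the R64 assembly of the S288C strain holds 4 ASP3 genes of 1089 bases each, 3 genes of 345 bases each (YLR156W, YLR159W and YLR161W), and 4 genes of 132 bases each (YLR154C-H, YLR156C-A, YLR157C-C and YLR159C-A). In each of these families 1 gene had a probe set of its own name. YLR157W-E, of 165 bases, lies between ASP3-2 and ASP3-3, and the next gene after it is a 5S gene, the place that YLR156W, YLR159W and YLR161W take in the other repeats. YLR154C-H overlaps a 5S gene on the opposite strand. YLR162W, of 357 bases, is the first gene after the last 5S gene. Of the 6 probe sets, 4 have names ending in _s_at, the maker's mark for probes shared by several transcripts, as have 104 of all 5684 (1.83%): 1 each for YLR154C-H, ASP3-1 and YLR156W, and 1 of those for YLR157W-E, called its shared probe set here. Its other one, whose name ends in _at without that mark, is called its dim probe set. A value of an _s_at probe set belongs to the copies together, and the number of copies in the strains of this study was not measured. No product role is given here for YLR154C-H, YLR156W, YLR157W-E and YLR162W, which are open reading frames of unknown function.

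The values are log2 expression levels. GAL1, the galactokinase gene, and HO averaged 14.1 and 13.5 log2 units over all arrays, above 99.8% and 98.1% of probe sets. The G2/M genes CLB1, CLB2 and SWI5 were above 45.8%, 12.8% and 64.1%, and the G1 genes SIC1, PCL9 and EGT2 above 61.2%, 22.0% and 43.0%. With a break in wild type 3 of the 3 G2/M and 2 of the 3 G1 genes were lower (limma adjusted p under 0.05), where 14.5% of all probe sets passed. In scc2-4, 1 of the 3 G2/M and 0 of the 3 G1 genes were lower, where 7.25% passed. The phase of the cells was not tested. SCC2 mRNA was lower in scc2-4 by −0.35 without and −0.49 with a break in experiment 1, which is no check of genotype, since the mutation impairs Scc2 protein. Sorted values differed by a mean of 0.00818 to 0.0302 for pairs of arrays within 3 sets, against 0.147 to 0.425 for pairs from different sets. The sets were experiment 1 with 12 arrays, scc2-4 in experiment 2 with 8, and wild type in experiment 2 with 7. Both states of the break lie in each set, but in experiment 2 genotype and set cannot be told apart. Differences between genotypes are therefore given for each experiment, and differences between break and no break as the mean of both experiments.

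YLR156W was higher with a break than without one in scc2-4 cells, by a log2 difference of 1.37 ± 0.08 (SE of the fit, 7 against 7 arrays; 2.58-fold). In wild type the mean difference of both experiments was −0.09 ± 0.08. In experiment 1 the scc2-4 arrays with a break read 8.40, 8.10 and 8.17, against 6.87, 6.72 and 6.69 without a break. In experiment 2 they read 8.14, 8.38, 8.25 and 8.18 with a break, against 6.72, 6.97, 7.03 and 7.15 without one. Every scc2-4 array with a break lay above every scc2-4 array without a break, and the difference was 1.46 ± 0.12 in experiment 1 and 1.27 ± 0.10 in experiment 2. The wild-type arrays of experiment 1 read 7.63, 7.48 and 7.25 with a break, against 7.76, 7.83 and 7.50 without a break. Those of experiment 2 read 6.66, 6.44 and 6.33 with a break, against 6.51, 6.51, 6.37 and 6.24 without a break. The wild-type groups overlapped in both experiments. Their difference was −0.24 ± 0.12 in experiment 1 and 0.07 ± 0.11 in experiment 2, and −0.09 ± 0.08 over both (95% confidence interval −0.25 to 0.08).

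YLR157W-E, read by its shared probe set, showed the same order of the groups. The scc2-4 arrays read 8.98, 8.69 and 8.86 with a break, against 7.61, 7.51 and 7.35 without a break in experiment 1, and 8.55, 8.74, 8.62 and 8.55 against 7.40, 7.57, 7.48 and 7.54 in experiment 2. The difference of 1.24 ± 0.07 (2.35-fold) again left no overlap between the scc2-4 groups. The wild-type arrays read 8.35, 8.30 and 8.01 with a break, against 8.40, 8.49 and 8.23 without a break in experiment 1, and 7.51, 7.39 and 7.22 against 7.36, 7.38, 7.21 and 7.04 in experiment 2. They overlapped, with a difference of −0.02 ± 0.07 (95% confidence interval −0.16 to 0.13). The dim probe set of the gene did not show this: in scc2-4 its break difference was 0.04 ± 0.02.

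ASP3-1 was a bright probe set, above 95.5% of all probe sets by its mean and above 93.0% to 97.2% of them on single arrays. In scc2-4 cells it read 13.35, 13.39 and 13.33 with a break, against 13.01, 13.02 and 13.02 without a break in experiment 1, and 13.29, 13.32, 13.30 and 13.24 against 12.81, 12.81, 12.86 and 12.89 in experiment 2. All arrays with a break were above all without one, and the difference was 0.39 ± 0.02 (1.31-fold), with 0.34 ± 0.03 in experiment 1 and 0.45 ± 0.03 in experiment 2. In wild type the arrays read 13.16, 13.13 and 13.11 with a break, against 13.16, 13.16 and 13.11 without a break in experiment 1, and 12.87, 12.89 and 12.85 against 12.92, 12.93, 12.84 and 12.84 in experiment 2. Here the difference was −0.01 ± 0.02 (95% confidence interval −0.06 to 0.04). Whether the brightness of the probes compresses differences at this level was not tested.

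**Figure D1:**
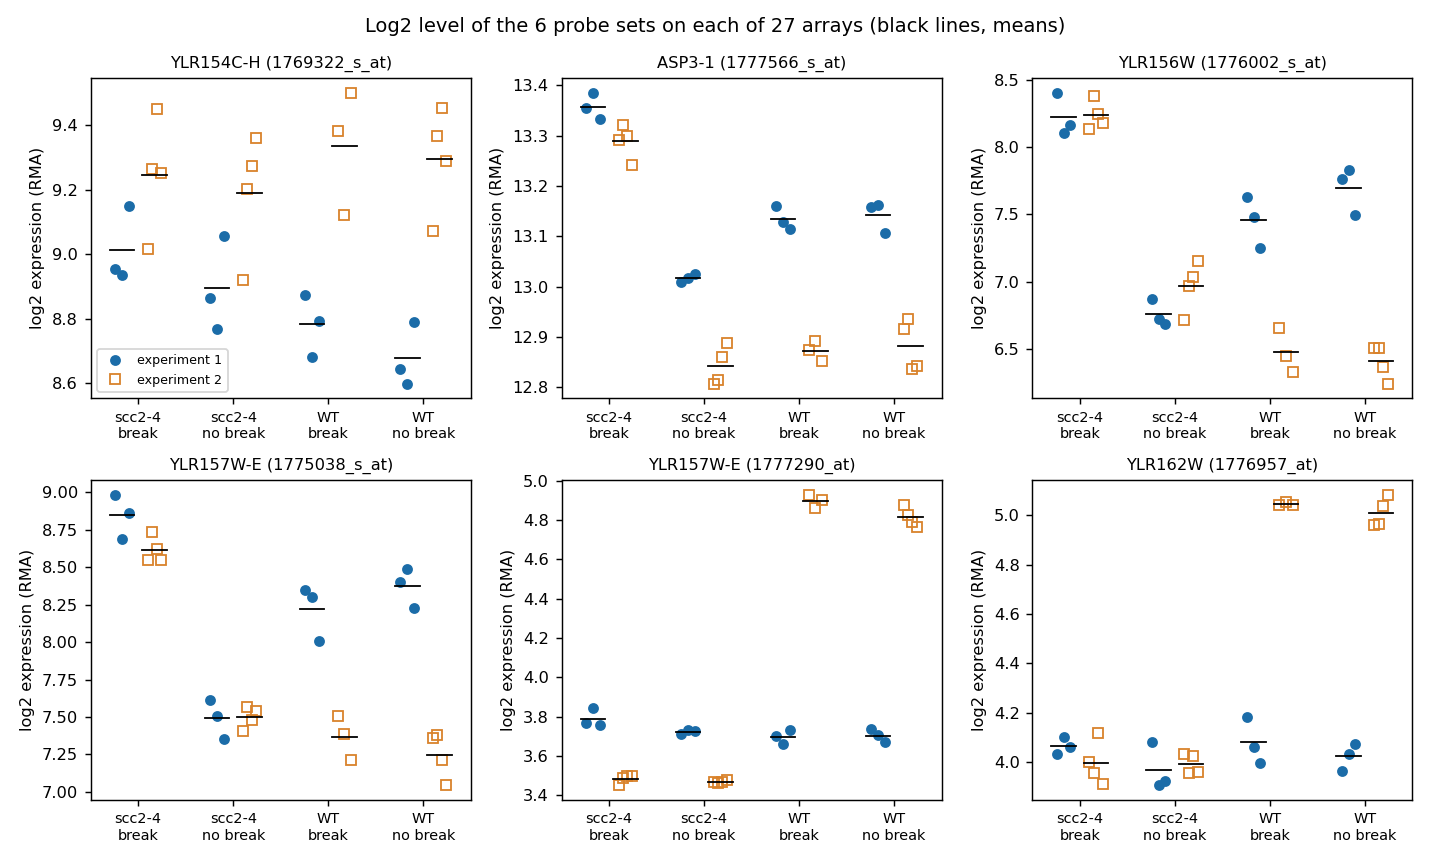
Log2 expression (RMA, vertical axis, own range for each panel) of the 6 probe sets on each of the 27 arrays, by group, with filled circles for experiment 1, open squares for experiment 2 and black lines for the mean of each group in an experiment. For ASP3-1, YLR156W and YLR157W-E (shared probe set) every array of scc2-4 with a break is above every array of scc2-4 without a break, while the wild-type arrays with and without a break overlap within each experiment.

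YLR154C-H, the gene opposite a 5S gene, did not follow its neighbours. In scc2-4 its arrays had a lowest, median and highest value of 8.93, 9.15 and 9.45 with a break, against 8.77, 9.06 and 9.36 without a break. In wild type they ran from 8.68 to 9.50 with a break, against 8.60 to 9.45 without a break. Over both experiments all 4 groups overlapped. In experiment 1, though, every scc2-4 array with a break (8.93 to 9.15) was above every wild-type array with a break (8.68 to 8.87), as for 22.3% of all probe sets. The break differences were 0.09 ± 0.08 (95% confidence interval −0.08 to 0.25) in scc2-4 and 0.07 ± 0.08 (−0.10 to 0.24) in wild type. YLR162W had break differences of 0.05 ± 0.04 in scc2-4 and 0.05 ± 0.04 in wild type.

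Of the 6 probe sets, 3 passed the threshold of 0.05 on the limma adjusted p over all probe sets for break against no break in scc2-4 (ASP3-1, YLR156W and YLR157W-E by its shared probe set), all higher with a break, where 7.25% of all probe sets passed and 3.98% passed with a higher value. The same 3 did not overlap between these groups, as was so for 0.457% of all probe sets in this direction. In wild type 0 of the 6 passed with limma, and 0 had an unadjusted p under 0.05, where 14.5% of all probe sets passed. The difference of the break differences, scc2-4 minus wild type, was 1.45 ± 0.11 for YLR156W, 1.25 ± 0.10 for YLR157W-E (shared probe set) and 0.40 ± 0.03 for ASP3-1, and these 3 passed, against 3.92% of all probe sets (1.88% with a higher value). It was 0.01 ± 0.11 for YLR154C-H, 0.00 ± 0.05 for YLR162W and 0.00 ± 0.03 for YLR157W-E by its dim probe set.

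Among all 5684 probe sets, 0 had a larger value of this difference than YLR156W. Only 1 had a larger one than YLR157W-E (shared probe set), which was YLR156W itself, and 22 had a larger one than ASP3-1. For the break difference in scc2-4 alone, 2 probe sets had a larger value than YLR156W, and these were ULI1 (2.35), a gene induced under endoplasmic reticulum stress, and HUG1 (1.37), an inhibitor of ribonucleotide reductase. Both genes also had higher values with a break in wild type, by 1.75 for ULI1 and 2.66 for HUG1. SLF1, an RNA-binding protein gene, came next after the YLR156W and YLR157W-E probe sets in the difference between genotypes (0.79), with 0.72 in scc2-4 and −0.08 in wild type. ULI1, HUG1 and SLF1 were singled out after their values were seen.

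**Figure D2:**
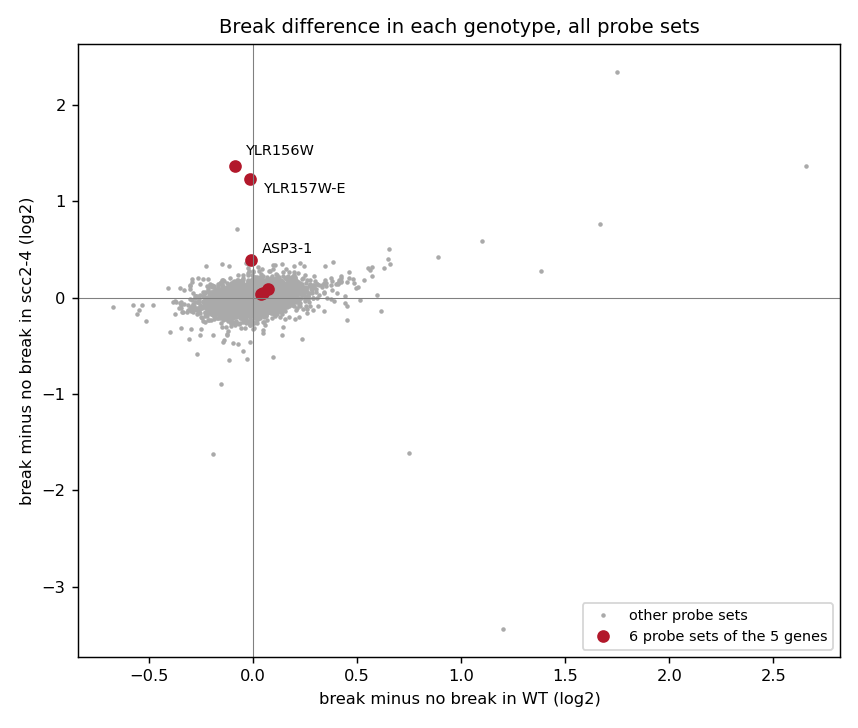
Log2 difference between break and no break in wild type (horizontal axis) and in scc2-4 (vertical axis) for all 5684 probe sets (grey points) and the 6 probe sets of the repeated genes (red circles). YLR156W and YLR157W-E (shared probe set) lie at −0.09 and −0.02 in wild type and at 1.37 and 1.24 in scc2-4. ASP3-1 lies at −0.01 and 0.39, and the dim YLR157W-E probe set at 0.04 and 0.04.

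Without a break the difference between genotypes had opposite signs in the 2 experiments for YLR156W, while that of YLR157W-E (shared probe set) in experiment 2 depended on the scaling. In experiment 1, in which both genotypes lie in 1 set, YLR156W was lower in scc2-4 by a log2 difference of −0.94 ± 0.12, YLR157W-E (shared probe set) by −0.88 ± 0.10 and ASP3-1 by −0.13 ± 0.03, and in all 3 every scc2-4 array lay below every wild-type array, as for 21% of all probe sets. In experiment 2 YLR156W was at 0.56 ± 0.10, YLR157W-E at 0.25 ± 0.09 and ASP3-1 at −0.04 ± 0.03. The YLR157W-E value of experiment 2 no longer passed when wild-type array 2_4 was left out (0.18), nor with arrays centred on their median (0.0050) or quantile normalized (−0.042). YLR156W was then at 0.32 and 0.26, and ASP3-1, which had not passed, passed at −0.28 and −0.19. For YLR156W the scc2-4 cells without a break averaged 6.76 ± 0.10 in experiment 1 (SD, n = 3) and 6.97 ± 0.19 in experiment 2 (SD, n = 4), and wild-type cells without a break averaged 7.69 ± 0.17 in experiment 1 and 6.41 ± 0.13 in experiment 2. The wild-type mean thus differed between experiments more than the scc2-4 mean did. In experiment 2 the wild-type arrays form a set of their own. A fit with the set as a term, which can take the genotype difference only from experiment 1, gave −0.80 for YLR156W, −0.74 for YLR157W-E and −0.16 for ASP3-1.

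With a break the same 3 probe sets were higher in scc2-4 than in wild type in both experiments. In experiment 1 the log2 difference was 0.77 ± 0.12 for YLR156W, 0.63 ± 0.10 for YLR157W-E (shared probe set) and 0.22 ± 0.03 for ASP3-1, and in experiment 2 it was 1.76 ± 0.11, 1.24 ± 0.10 and 0.42 ± 0.03. With median centring the experiment 2 values were 1.51, 1.00 and 0.17, and with quantile normalization 1.47, 0.94 and 0.23. Each scc2-4 array with a break read above each wild-type array with a break of its experiment, as for 22.3% of all probe sets in experiment 1 and 57.9% in experiment 2. In experiment 1 the 4 groups thus ran, for both YLR156W and YLR157W-E, from scc2-4 without a break through both wild-type groups, which overlapped, to scc2-4 with a break. In experiment 2 the scc2-4 group without a break lay next to the wild-type groups for YLR157W-E, and the YLR157W-E values of the scc2-4 group without a break overlapped those of wild type with a break.

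In the comparison of genotypes without a break 3 of the 6 probe sets passed in experiment 1, all lower, where 34.3% of all probe sets passed and 16.5% passed with a lower value, and 4 of the 6 passed in experiment 2, where 83.8% of all did. With a break 4 of the 6 passed in experiment 1, all higher, where 35.9% of all passed and 19.1% passed with a higher value, and 5 of the 6 in experiment 2, where 81.9% of all did. The fourth in experiment 1 with a break was the dim probe set of YLR157W-E, with a log2 difference of 0.09 ± 0.03, which no longer passed when scc2-4 array 1_2 with a break (0.07) or wild-type array 1_1 (0.09) or 1_2 (0.07) with a break was left out, nor with median centring (0.085) or quantile normalization (0.050). For the change of the genotype difference between experiments, 75.6% of all probe sets passed without a break and 72.3% with one. The median over all probe sets was 0.01 in experiment 1 and 0.24 in experiment 2 without a break, and 0.01 and 0.23 with one. YLR154C-H passed in none of these comparisons on the deposited scale, with 0.22 ± 0.12 and −0.11 ± 0.10 without a break and 0.23 ± 0.12 and −0.09 ± 0.11 with one in experiments 1 and 2. In experiment 2 it passed with median centring (−0.35 without and −0.34 with a break) and quantile normalization (−0.38 and −0.36), and in experiment 1 with a break it passed with array weights (0.23).

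**Figure D3:**
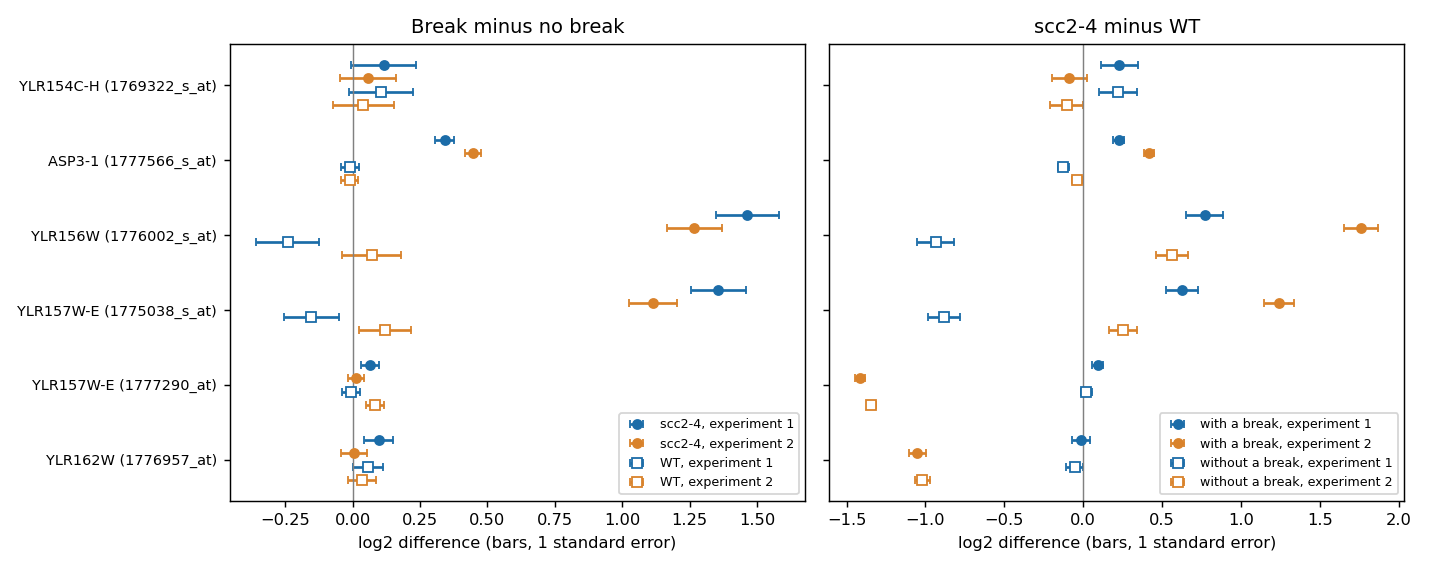
Log2 differences (horizontal axis, bars of 1 standard error) of the 6 probe sets: left, break minus no break in scc2-4 and wild type, and right, scc2-4 minus wild type with and without a break, each for experiments 1 and 2. On the left the scc2-4 values of YLR156W lie at 1.46 and 1.27 and its wild-type values at −0.24 and 0.07. On the right its values without a break lie at −0.94 and 0.56.

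YLR162W and the dim probe set of YLR157W-E were among the dimmest of the table. Their means of 4.28 and 3.94 log2 units were above 0.932% and 0.0352% of probe sets. YLR156W and the shared YLR157W-E probe set were brighter than these but also low. Their means of 7.27 and 7.94 were above 8.76% and 12.3% of probe sets, so both fell in the dimmest 20%. In experiment 1 YLR162W averaged 4.06 ± 0.03 in scc2-4 with a break and 4.08 ± 0.10 in wild type with a break, and 3.97 ± 0.10 in scc2-4 without a break and 4.02 ± 0.06 in wild type without a break (SD, n = 3 each). In experiment 2 it averaged 4.00 ± 0.09 (n = 4) in scc2-4 and 5.05 ± 0.01 (n = 3) in wild type with a break, and 3.99 ± 0.04 (n = 4) in scc2-4 and 5.01 ± 0.06 (n = 4) in wild type without a break. The dim YLR157W-E probe set averaged 3.47 ± 0.01 in scc2-4 and 4.81 ± 0.05 in wild type without a break in that experiment, a difference of −1.34 ± 0.03.

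The lowest value of an array moved in the same way. It lay between 3.35 and 3.45 on the scc2-4 arrays of experiment 2, between 4.63 and 4.66 on the wild-type arrays of experiment 2 and between 3.56 and 3.67 on the arrays of experiment 1. On scc2-4 array 2_1 with a break this lowest value, 3.45, was that of the dim YLR157W-E probe set itself. The other 112 of the dimmest 2% of probe sets had a median difference of −1.09 between scc2-4 and wild type without a break in experiment 2 (quartiles −1.20 and −0.96), and all 112 passed, against a median of 0.02 in experiment 1. The value of −1.02 ± 0.05 for YLR162W lay between these quartiles, and that of −1.34 ± 0.03 for the dim YLR157W-E probe set below them. After quantile normalization YLR162W was at 0.023 without a break in experiment 2 and did not pass. The dim YLR157W-E probe set was then at −0.16 without and −0.24 with a break in that experiment, and still passed. For these probe sets the genotype and the processing of the arrays cannot be told apart.

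**Figure D4:**
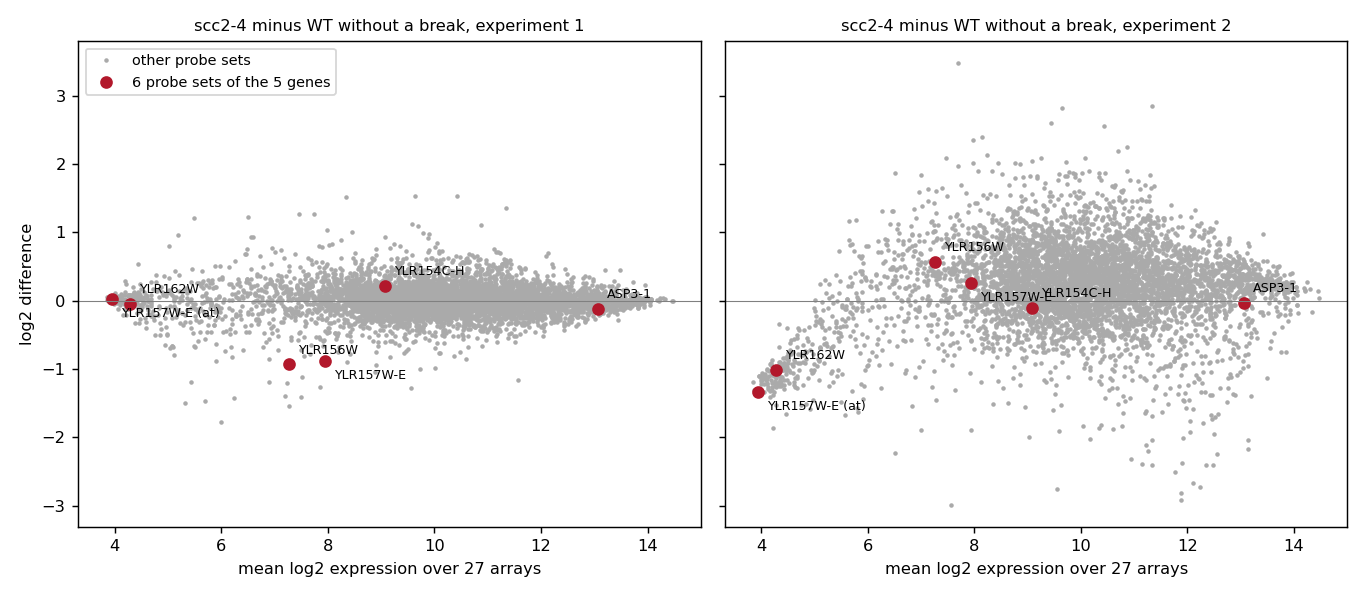
Log2 difference between scc2-4 and wild type without a break (vertical axis) against the mean log2 expression over 27 arrays (horizontal axis) for all probe sets (grey) and the 6 probe sets of the repeated genes (red), in experiment 1 (left) and experiment 2 (right). YLR162W and the dim YLR157W-E probe set, marked (at), move with the other dim probe sets to −1.02 and −1.34 in experiment 2. YLR156W and the shared YLR157W-E probe set lie at −0.94 and −0.88 in experiment 1.

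The genes outside the repeats were compared over the 10 annotated genes on each side of the ribosomal DNA units, of which 7 were measured before the units and 9 after them. Between the first and the last unit none of 34 other annotated entries had a probe set of its own. These entries include the ribosomal RNA genes and spacers of the units, and the other copies of ASP3, YLR156W and YLR154C-H. For break against no break in scc2-4, 1 of the 7 genes before the units passed and 0 of the 9 genes after them (with limma), where 7.25% of all probe sets passed, with medians of 0.04 and 0.06, against 0.00 over all probe sets. The gene that passed was ACS2, an acetyl-CoA synthetase gene, at 0.17 ± 0.05 (limma adjusted p = 0.0236). RRT15, the gene next to YLR162W, was at 0.14 and RNH203, a subunit gene of ribonuclease H2 and the last protein gene before the units, at 0.09 in the same comparison, neither of which passed. In wild type, where 14.5% of all probe sets passed, 0 of the 7 passed and 1 of the 9, UPS2, a mitochondrial lipid-transfer gene, at −0.17 ± 0.06 (limma adjusted p = 0.044).

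**Figure D5:**
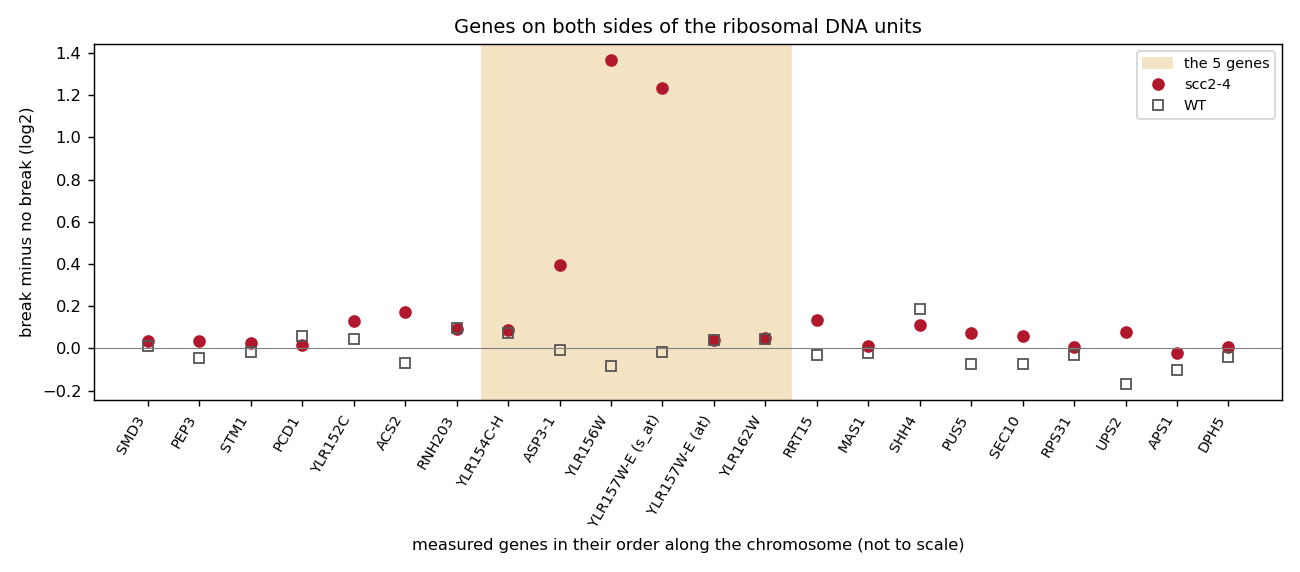
Log2 difference between break and no break in scc2-4 (red circles) and wild type (open squares) for the measured genes on both sides of the ribosomal DNA units, in their order along the chromosome and not to scale; the shaded stretch holds the 6 probe sets of the repeated genes. YLR156W (1.37), YLR157W-E (s_at, 1.24) and ASP3-1 (0.39) stand above the genes on either side, which in scc2-4 reach 0.17 at ACS2.

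The 3 probe sets that differed also varied together. After the mean of each set was removed, Pearson's r over the 27 arrays was 0.99 between YLR156W and YLR157W-E (shared probe set). It was 0.94 between ASP3-1 and YLR156W and 0.93 between ASP3-1 and YLR157W-E (shared probe set). Removing the set means leaves in the break differences by which these probe sets stood out, so these r are no separate result. After the mean of each group in each experiment was removed, r was 0.89, 0.64 and 0.51 for the same pairs, which leaves only the variation between replicates. The arrays are the same in both, and the shared probes of _s_at probe sets may read the same transcripts. For YLR154C-H against these 3 probe sets, r between replicates ran from −0.10 to 0.13.

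Among the probe sets of other genes, those most like YLR156W after the mean of each set was removed were ALE1, a lysophospholipid acyltransferase gene (r = 0.81), QNS1, the NAD synthetase gene (0.77), and ECO1, the acetyltransferase that establishes cohesion (0.77). ALE1 (0.80) was also the most like YLR157W-E (shared probe set), followed by NHP6B, a chromatin protein gene (0.78), and QNS1 (0.75). For ASP3-1 they were DIF1, a regulator of ribonucleotide reductase (0.82), ALE1 (0.81) and ECO1 (0.81). The break differences in scc2-4 of ALE1, ECO1 and DIF1 were 0.37, 0.35 and 0.35, and in wild type −0.03, −0.15 and −0.02. YLR154C-H was most like ERJ5 (0.75), TSA1 (0.72) and SAG1 (0.72), YLR162W most like CTO1 (0.67), TFB5 (0.66) and YDR524C-B (0.65), and the dim YLR157W-E probe set most like YIP4 (0.76), SOD2 (0.73) and GTF1 (0.72).

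ASP3 belongs to the genes that yeast represses while good nitrogen sources last, and 34 of 35 listed genes of asparagine metabolism and nitrogen catabolite repression were measured. With a break in scc2-4 2 of the 34 rose and 2 fell (median 0.00), where 7.25% of all probe sets passed. The allantoin gene DAL3 rose by 0.19 ± 0.05 (limma adjusted p = 0.0281), and the GABA transaminase gene UGA1 rose by 0.17 ± 0.05 (0.0217). ASN1, of asparagine synthesis, had a difference of −0.27 ± 0.06 (0.00833) and CAN1, the arginine permease, of −0.16 ± 0.03 (0.00186). In wild type 0 of the 34 rose and 4 fell (MEP3, GAT1, DAL7 and CAN1), where 14.5% of all probe sets passed, with DAL7 at −0.20 ± 0.04. Between genotypes without a break in experiment 1, 8 rose and 1 fell in scc2-4 (median 0.03), where 17.9% of all probe sets were higher and 16.5% lower: DAL4 and DUR3, permeases of allantoin and urea, rose by 0.50 ± 0.11 and 0.33 ± 0.09, while ASN2, the second asparagine synthetase gene, was at −0.44 ± 0.06. With a break in experiment 1, 11 of the 34 were higher and 1 lower in scc2-4 (median 0.08). Of all probe sets 35.9% passed there, and 19.1% passed with a higher value.

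Of 15 listed genes of ribosomal DNA silencing and the fork barrier 14 were measured, and 1 of them passed with a break in scc2-4, where 7.25% of all probe sets did: CSM1, of the complex that tethers the array to the nuclear envelope, at 0.09 ± 0.02 (limma adjusted p = 0.0302). In wild type, where 14.5% of all probe sets passed, CSM1 rose by 0.11 ± 0.03 and RIF1 by 0.13 ± 0.04, and CDC14, the phosphatase that the nucleolus holds until anaphase, was at −0.67 ± 0.04 (limma adjusted p = 5.53e-12). The break differences of CDC14 differed between the genotypes by 0.57 ± 0.05 and those of RIF1 by −0.25 ± 0.05. Without a break in experiment 1, 3 of the 14 fell in scc2-4 and 0 rose, where 16.5% of all probe sets were lower: RRM3, a helicase gene, was at −0.35 ± 0.11, CSM1 at −0.24 ± 0.04 and SIR2, the silencing deacetylase, at −0.17 ± 0.06.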

How the data were processed

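Total RNA was hybridised to 27 Affymetrix Yeast Genome 2.0 arrays, 1 sample per array. The deposited table holds log2 expression values; the submitters' processing notes name RMA and R 2.9.2 for the authors' work. The RMA version and the arrays processed together are not given in the sources used here, so it is not known how columns were centred; scanner files were not used. Column medians lay from 10.01 to 10.04 (scc2-4, experiment 2), 9.76 to 9.79 (wild type, experiment 2) and 10.19 to 10.22 (experiment 1). The number of arrays limits the precision. Genes were named through the platform's probe table, whose 5468 entries all matched the R64 gene table. That gene table served for names and gene order only, and no coordinates are given, since the build behind the deposited values is not given in the sources used here.

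All 5684 probe sets were fitted in limma 3.58.1 (R 4.3.3) with lmFit and eBayes, with a mean for each group in each experiment. Adjusted p is Benjamini-Hochberg over all probe sets, with a threshold of 0.05. Where a gene outside the members had several probe sets, the one of highest mean was used. The fit was tested on simulated data for break against no break in scc2-4, over 5684 probe sets: 100% of 100 changes of 1 log2 unit and 96% of 100 of 0.5 were recovered. Of the calls 4.39% were false. The simulated noise was independent between arrays, so correlation between the real arrays was not covered. The labels call the replicates biological and do not say more, so p-values measure the spread between these arrays. Members and lists were chosen with earlier results of these data known. Named were all member probe sets, the 3 most correlated probe sets of other genes for each, genes used as checks of the labels, and up to 4 genes per list among those past the threshold. The alternatives were other models, normalizations, filters and weights, and leaving out arrays.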

Additional observations from a re-analysis of the deposited data

Results flagged for a closer look

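The break difference differed between genotypes, scc2-4 minus wild type, for YLR156W (1.45), YLR157W-E by its shared probe set (1.25) and ASP3-1 (0.40), by the term of the limma fit for that difference. The genotype difference without a break differed between experiments, experiment 2 minus experiment 1, for YLR156W (1.50), YLR157W-E by its shared probe set (1.13) and by its dim one (−1.36), and YLR162W (−0.97). With a break it differed for ASP3-1 (0.19), YLR156W (0.99), YLR157W-E by its shared probe set (0.62) and by its dim one (−1.51), and YLR162W (−1.04). Of all probe sets 75.6% and 72.3% passed for these differences between experiments. In 42 checks, each of a probe set in a group of at least 4 arrays, 0 arrays stood far from the others. Groups of 3 arrays were checked only together with the arrays of the other experiment, from which they can differ in level.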

How the results depend on the processing

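For break against no break in scc2-4, and for its difference from wild type, YLR156W, YLR157W-E (shared probe set) and ASP3-1 kept their sign under each alternative that fitted them. With the dimmest 20% of probe sets left out 4 of the 6 were not tested, so fewer could be called: 1 in scc2-4, 1 for the difference, 1 for genotype with a break in each experiment, and 1 and 0 without a break in experiments 1 and 2. Genotype calls without a break in experiment 2 were 2 with experiment as an additive term or with the replicate block, and those with a break in experiment 2 were 3 with the processing set as a term. Both additive fits give 1 genotype difference for both experiments, so signs turned. Without a break the additive term and the replicate block gave −0.079 for YLR156W and −0.24 for YLR157W-E (shared probe set) in experiment 2, and −0.76 for its dim probe set in experiment 1, which with a break was −0.71 and −0.69. The processing set gave −0.80, −0.74 and 0.059 for YLR156W and the shared and dim YLR157W-E probe sets in experiment 2 without a break, and 0.054 for the dim one with it. Quantile normalization gave −0.042 for the shared probe set and 0.023 for YLR162W without a break, and 0.0076 for YLR162W with one, in experiment 2, where it removes most of the shift of all probe sets. Leaving out single arrays gave 3 to 3 calls in scc2-4 and for the difference, 0 to 0 in wild type, 3 to 4 and 5 to 5 for genotype with a break, and 3 to 3 and 3 to 4 without one. Same-numbered arrays of different groups had r between −0.67 and 0.76 (median 0.298), against −0.84 to 0.80 (median −0.158) for other numbers. Not every pair was over 0.1, and 9 of 27 arrays were most like one of their own number, so numbers were not taken to pair arrays. With the replicate block the YLR156W difference between genotypes in the break difference was 1.37 (limma adjusted p = 0.0584). Over all probe sets, 826, 412 and 223 passed for break in wild type, in scc2-4 and for the difference, against 115, 37 and 23 with the additive term, 111, 33 and 20 with the replicate block, 1333, 2218 and 748 with array weights, 24, 39 and 13 in experiment 1 alone, and 1325, 597 and 148 in experiment 2 alone. The processing set as a term gave 147 for the difference. Genotype in experiment 1 gave 1952 without and 2043 with a break, against 3758 and 3514 with the additive term, 3630 and 3256 with the replicate block, and 3089 and 3204 with array weights. In experiment 2 it gave 4762 and 4656, against 2185 and 2411 with the processing set as a term. After centring each array on its median, 2195 of 4513 calls without a break and 2119 of 4458 with one were higher in scc2-4 in experiment 2, against 3433 of 4762 and 3315 of 4656. In scc2-4, 293 of 461 break calls were then higher, against 226 of 412.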
